A study of Mus musculus with 6 samples.

Results

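The genes described here encode 10 proteins that epithelia of the lung release into the airway fluid or carry across the cell. They were taken by symbol from the 6 count files of the series and comprise the lysozymes Lyz1 and Lyz2, the BPI-fold proteins Bpifa1 and Bpifb1, the lectin Reg3g, the iron-withholding proteins Lcn2 and Ltf, the WAP-domain proteins Wfdc2 and Slpi, and the antibody transporter Pigr. They are 10 of 48577 genes counted. Of these 10, 9 passed the filter on low counts that left 13175 genes for testing, and Slpi did not.

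The samples came from lungs of C57BL/6 Miwi2-tdTomato mice, in which the red fluorescent protein tdTomato reports Piwil4, the gene of the Piwi protein MIWI2. Both groups carried the reporter. Digested lung cells lacking the leukocyte marker CD45 and bearing the epithelial marker EpCAM were sorted into a tdTomato-negative and a tdTomato-positive fraction from each of 3 mice, giving 3 libraries per group. The sources used here do not give the age, sex or housing of the mice, the copy number of the reporter allele, or any gate for cilia, although the labels call both fractions multiciliated. Each library had between 5330584 and 6326395 reads in genes, and a gene without a read could still stand at 0.475 to 0.585 CPM (counts scaled to equal library size with TMM factors), the level of 3 reads. The tdTomato row held 37, 16 and 18 reads in positive cells and 0 in each negative library. Piwil4 itself was read in both fractions, with 227, 156 and 234 reads in negative cells and 599, 605 and 701 in positive cells. It was 2.58-fold higher in positive cells (edgeR adjusted p = 0.0120). Multiciliated markers summed to 9155 to 9491 CPM in negative cells and 9524 to 9542 CPM in positive cells. Markers of other epithelial cells were abundant too: club cell markers summed to 5940 to 9464 and 9830 to 23343 CPM, and alveolar type 2 markers to 5967 to 6962 and 422 to 1104 CPM. On the first principal component of the tested genes, which held 37.6% of the variance, the positive library of mouse 1 stood apart. Without it Lyz2 was at -3.30 on the log2 scale (edgeR adjusted p = 0.00148), Lyz1 at -2.53, Reg3g at 2.57, Bpifa1 at 1.68, Bpifb1 at 1.93 and Ltf at 2.49, with Lyz2 and Lcn2 called; the main values stand below.

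The fluid that lines the airways and alveoli holds proteins that kill microbes, bind their products or deny them iron. Lysozyme cleaves the peptidoglycan of bacterial cell walls; of the mouse genes, Lyz1 is best known from Paneth cells of the gut and Lyz2 from macrophages, neutrophils and alveolar type 2 cells. BPI-fold proteins are made mainly by secretory cells and glands of the nose and conducting airways, Reg3g is a lectin directed at Gram-positive bacteria that epithelia induce during infection, and lactoferrin (Ltf) and lipocalin 2 (Lcn2) bind iron or the siderophores that carry it. WAP-domain proteins include protease inhibitors, and the polymeric immunoglobulin receptor (Pigr) carries IgA through the cell to the lumen.

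Between the fractions, the lysozymes and Lcn2 were lower and Reg3g and, by less, Wfdc2 were higher in tdTomato-positive cells within each mouse. Bpifa1, Bpifb1 and Ltf were higher in the positive cells of mice 1 and 2. In mouse 3, Bpifa1 was lower in the positive cells, and Bpifb1 and Ltf were scarce in both fractions. In edgeR's quasi-likelihood test with Benjamini-Hochberg adjustment over all genes, 1 of the 9 tested members, Lyz2, fell; 0.577% of all tested genes fell in the same test. None rose, against 0.0455% of all tested genes; at an unadjusted p under 0.05, 1 member was higher, beside 5.53% of all tested genes, and 2 were lower, beside 5.16%. DESeq2 called 0 members higher and 2 lower, beside 0.425% and 1.43% of all tested genes, and limma-voom called 0 and 1, beside 0.038% and 0.615%. With the mouse as a block, which compares the fractions within each mouse, Lyz1, Lyz2 and Lcn2 fell and Bpifb1, Reg3g and Ltf rose, that is 3 members lower where 1.79% of all tested genes were, and 3 higher where 1.36% were. The CPM ranges of the groups did not overlap for Reg3g, with positive libraries above, as for 8.29% of tested genes, and for Lyz2 and Lcn2, with positive libraries below, as for 9.02%. The median log2 fold change (positive over negative, here and throughout) was 0.67 over the 9 members and 0.03 over all tested genes. Of the members, 5 lay above 0 and 4 below, and their median is the value of Wfdc2, which was not called.

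**Figure D1:**
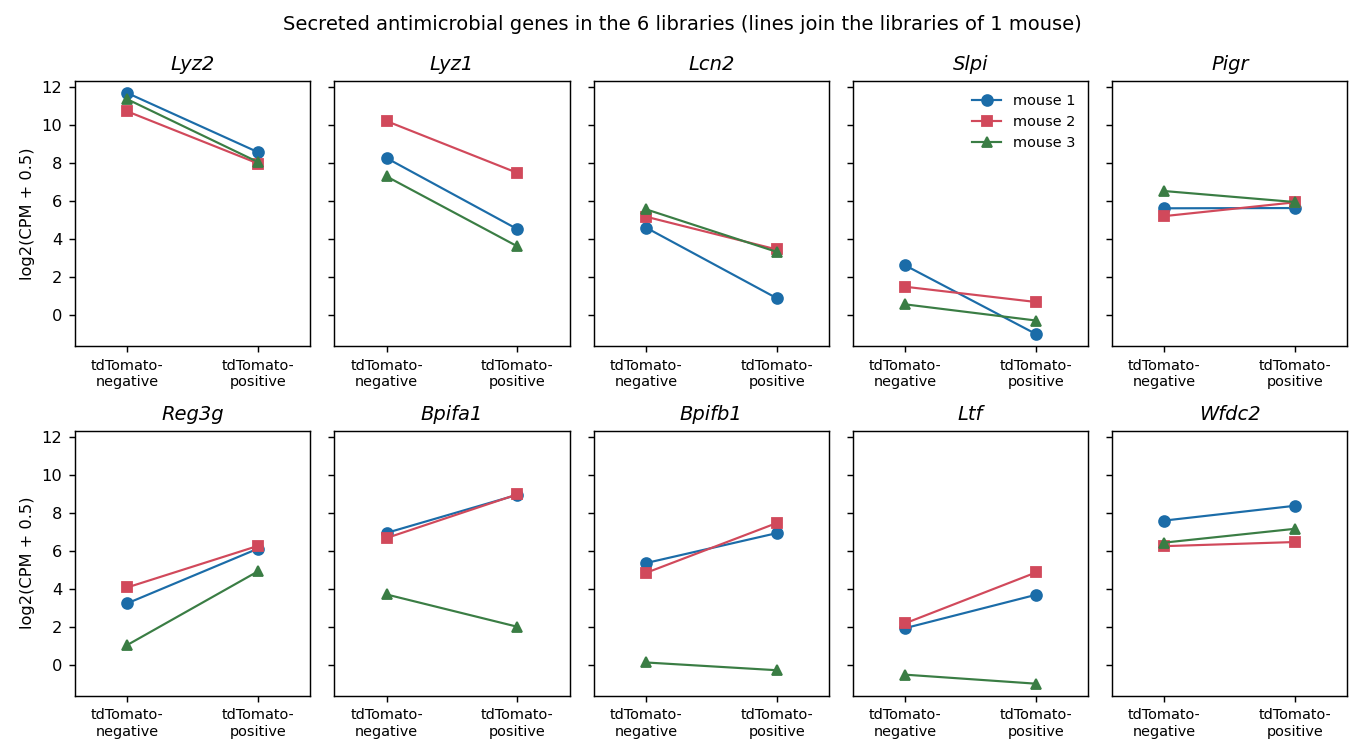
Level of each of the 10 genes in each library as log2 of CPM plus 0.5, 1 panel per gene with a shared axis, with the negative and positive library of a mouse joined by a line. Lines for Lyz1, Lyz2 and Lcn2 slope down in all 3 mice, those for Reg3g slope up in all 3, and the Bpifa1, Bpifb1 and Ltf points of mouse 3 lie far below those of mice 1 and 2.

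Lyz2 was the most abundant member per base of transcript in each negative library, and it fell in positive cells. Its levels in the negative libraries of mice 1, 2 and 3 were 3302, 1689 and 2629 CPM, and in the positive libraries 380, 252 and 265 CPM. Each positive library lay below each negative one. Group means were 2540 ± 810 and 299 ± 70.6 CPM (SD, n = 3 each). In edgeR this was a difference of -3.09 ± 0.269 on the log2 scale (SE, adjusted p = 0.000448), and called in each of the 20 alternatives run. Within mice the positive level was 8.69-fold, 6.71-fold and 9.94-fold lower. In sorted bulk cells, fewer cells of a type and less RNA per cell cannot be told apart.

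Lyz1 was lower in the positive cells of each mouse, as Lyz2 was, but its level differed widely between mice. The negative libraries held 307, 1185 and 157 CPM and the positive ones 22.5, 178 and 11.8 CPM. Mouse 2 was the highest in both fractions, and its positive library exceeded the negative library of mouse 3, so the groups overlapped. On the log2 scale edgeR gave -2.95 ± 1.47 (SE, adjusted p = 0.567), whereas with the mouse as a block it was -3.37 ± 0.198 (adjusted p = 1.73e-08). Without mouse 2 it was -3.76 (adjusted p = 0.0213). Within mice 1, 2 and 3 the positive level was 13.7-fold, 6.64-fold and 13.3-fold lower.

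The share of Lyz1 among all lysozyme reads was far higher in mouse 2 than in the other mice, in both fractions. In mouse 2, Lyz1 made up 41.2% of Lyz1 plus Lyz2 reads in the negative library (Wilson 95% interval 40.5 to 42.0%) and 41.5% in the positive one (39.6 to 43.3%). In mouse 1 the share was 8.50% (8.11 to 8.91%) and 5.58% (4.73 to 6.58%), and in mouse 3 it was 5.62% (5.25 to 6.01%) and 4.25% (3.40 to 5.31%). The intervals of the fractions overlapped in mouse 2, did not in mouse 1, and touched over a narrow range in mouse 3; they cover counting error only. Between mice 1 and 3 the shares differed about as much as between the fractions of either. Summed over both genes, lysozyme stood at 3608, 2874 and 2786 CPM in negative cells and 402, 430 and 276 CPM in positive cells, an 8.97-fold, 6.68-fold and 10.1-fold lower level. The summed level of the negative libraries thus spanned a narrower range than either gene alone.

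**Figure D2:**
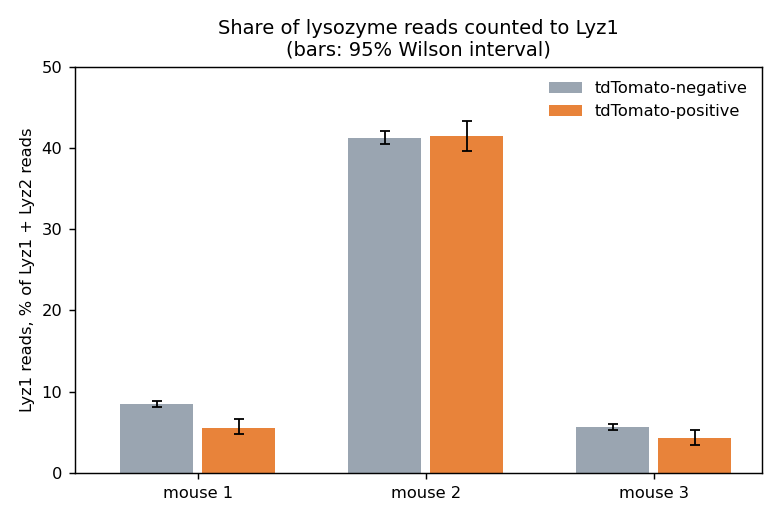
Share of Lyz1 in Lyz1 plus Lyz2 reads, in percent from 0, for both libraries of each mouse, with Wilson 95% counting intervals. Mouse 2 stands at 41.2 and 41.5%, and the other 4 libraries lie between 4.25 and 8.50%.

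The lysozyme genes are neighbours and near copies, which bears on how their reads can be told apart. In GRCm38, Lyz1 lies on chromosome 10 at 117287797-117292868 and Lyz2 at 117277331-117282321, both on the minus strand and 5475 bases apart, with no coding gene between. Their coding sequences, 447 bases each with the stop codon, match at 425 positions and differ at 22 (95.08% identical). Of the 50-base windows along the Lyz1 transcript, 16.1% also occur in Lyz2, and 2.06% of the 100-base windows do. The read length is not given in the sources used here, and reads that fit both copies may be missing from both counts. The stretch before the start has diverged further: over the 250 bases before the RefSeq start the copies are 79.37% identical. The last 50 of these bases are the same in both and are left out below. The part from 250 to 51 bases before the start is shown 5′ to 3′ because it is where the neighbouring genes differ, with capitals for bases that differ from, or have no partner in, the other copy (RefSeq, GRCm38.p6, minus strand, Lyz1 at chr10:117292919-117293118 and Lyz2 at chr10:117282323-117282522).
Lyz1: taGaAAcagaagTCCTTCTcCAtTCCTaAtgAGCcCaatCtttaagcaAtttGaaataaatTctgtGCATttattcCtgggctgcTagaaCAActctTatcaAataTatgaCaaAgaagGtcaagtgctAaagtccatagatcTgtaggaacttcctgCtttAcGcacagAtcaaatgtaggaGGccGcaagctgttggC
Lyz2: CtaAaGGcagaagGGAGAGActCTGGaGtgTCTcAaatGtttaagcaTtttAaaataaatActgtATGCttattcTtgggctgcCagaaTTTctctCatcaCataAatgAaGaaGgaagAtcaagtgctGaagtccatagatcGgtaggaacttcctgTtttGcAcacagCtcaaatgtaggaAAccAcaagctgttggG
Both stretches hold the letters CACTTG of an NKX2-1 motif in reverse complement, 129 to 124 bases before the start, and only that of Lyz1 holds the C/EBP motif TTGCNNAA, also in reverse complement, at 209 to 202. On either strand, the first occurs in 11.6% and the second in 9.56% of 32851 RefSeq promoter windows, searched over the 250 bases before the start. Among the 10 genes, the first also occurs for Wfdc2 and Slpi, and the second for Lcn2, Ltf and Slpi. A match describes the letters and not a bound site.

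Reg3g, on chromosome 6 at 78466269-78468872 (minus strand), had the highest log2 fold change of the members. There were 46, 85 and 8 reads in negative cells of mice 1, 2 and 3, and 408, 482 and 188 in positive cells, or 8.92, 16.3 and 1.56 CPM against 68.9, 76.3 and 29.9 CPM. The lowest positive library, of mouse 3, lay above the highest negative library, of mouse 2. The log2 fold change of 2.70 ± 0.723 (SE) was the third highest among the 13175 genes tested, yet its adjusted p was 0.256 in edgeR without a block. With the mouse as a block it was 2.93 ± 0.306 (adjusted p = 2.22e-05). Without mouse 3, edgeR without a block gave 2.52 (adjusted p = 0.0474). Within mice the level was 7.72-fold (95% counting interval 5.68 to 10.7), 4.67-fold (3.70 to 5.95) and 19.1-fold (9.52 to 45.0) higher in the positive cells, so the change was the steepest in mouse 3, where the negative level was the lowest.

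Motifs, 6 in all, were searched on both strands in the 250 bases before the start in each window. An NF-kappaB motif, GGGNNTTTC, occurred in that of Reg3g alone among the 10 genes, and in 3.72% of all windows. A TATA box, TATAAA, occurred in the windows of Reg3g and Bpifa1 and in 12.4% of all. The 250 bases before each start are shown 5′ to 3′ with these matches in capitals, because Reg3g and Bpifa1 are the airway products that separated in mouse 3 (RefSeq, GRCm38.p6, Reg3g at chr6:78468875-78469124 on the minus strand, Bpifa1 at chr2:154142630-154142879 on the plus strand).
Reg3g: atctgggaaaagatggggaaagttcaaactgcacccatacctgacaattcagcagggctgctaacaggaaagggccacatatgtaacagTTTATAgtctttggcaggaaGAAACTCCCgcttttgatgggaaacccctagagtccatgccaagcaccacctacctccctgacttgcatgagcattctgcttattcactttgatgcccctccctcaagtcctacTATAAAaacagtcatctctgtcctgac
Bpifa1: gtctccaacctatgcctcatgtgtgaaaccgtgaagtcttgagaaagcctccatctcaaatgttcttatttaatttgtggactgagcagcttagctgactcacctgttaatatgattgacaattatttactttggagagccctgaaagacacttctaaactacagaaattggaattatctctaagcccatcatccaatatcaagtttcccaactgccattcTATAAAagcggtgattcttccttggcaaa
In Reg3g, the NF-kappaB letters stand in reverse complement at 141 to 133 bases before the start, and TATA letters at 161 to 156 in reverse complement and at 27 to 22 as written. In Bpifa1 the TATA letters stand at 29 to 24. Bpifb1 and Wfdc2 had 2 windows each. The STAT motif TTCNNNGAA occurred only in the Bpifb1 window whose start, 154200380, lies inside the annotated gene (7.02% of all windows). The FOX motif GTAAACA occurred in none of the 10 genes (3.17% of all windows). No match overlapped another within a window.

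The BPI-fold genes divided the mice. Bpifa1, also known as SPLUNC1, encodes a secreted protein of the upper airway surface with surfactant-like and antibacterial activity, and Bpifb1 a longer relative; both lie on chromosome 2, at 154142880-154149219 and 154190818-154220369 on the plus strand. Bpifa1 had 632 and 529 reads in negative cells and 2924 and 3176 in positive cells of mice 1 and 2, but 64 and 22 in those of mouse 3. In CPM these were 123, 102 and 12.5 against 494, 502 and 3.49. Mice 1 and 2 were 4.03-fold and 4.95-fold higher in the positive cells and mouse 3 was 3.57-fold lower, and both libraries of mouse 3 were below the other 4. EdgeR put the log2 fold change at 2.08 ± 1.75 (SE, adjusted p = 0.729), and with the mouse as a block 1.38 ± 1.13 (adjusted p = 0.679). Without mouse 3 it was 2.15 (adjusted p = 0.0130). With the block but without mouse 1 it was 0.88 (adjusted p = 0.0241). Mice 2 and 3, which remain in that fit, changed in opposite directions, so this call does not show agreement between mice. Limma-voom gave 0.81 (adjusted p = 0.937).

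Bpifb1 shared this pattern at a lower level. Its reads were 208, 146 and 3 in negative cells and 719, 1110 and 2 in positive cells, or 40.4, 28.0 and 0.585 against 121, 176 and 0.318 CPM. Both libraries of mouse 3 were at or under the level of 3 reads, so no fold is given there; in mice 1 and 2 the positive level was 3.01-fold and 6.26-fold higher. On the log2 scale edgeR gave 2.11 ± 1.93 (SE, adjusted p = 0.753), and with the mouse as a block 2.01 ± 0.298 (adjusted p = 0.000601). Without mouse 3, edgeR without a block gave 2.12 (adjusted p = 0.0445). Limma-voom gave 1.11 (adjusted p = 0.938).

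Ltf (chromosome 9, 111019271-111042767, plus strand) was the scarcest member in the negative cells per base of transcript and, like Bpifb1, had 3 reads or fewer in each library of mouse 3. It had 17, 21 and 1 reads in negative cells and 73, 180 and 0 in positive cells, which is 3.30, 4.03 and 0.195 against 12.3, 28.5 and 0 CPM. The positive level was 3.74-fold higher in mouse 1 and 7.06-fold higher in mouse 2, and mouse 3 gave too few reads for a fold. EdgeR put the log2 fold change at 2.43 ± 1.57 (SE, adjusted p = 0.633), and with the mouse as a block 2.20 ± 0.555 (adjusted p = 0.0372). The blocked call was lost without mouse 2 (1.42, adjusted p = 0.553) and without mouse 3 (2.37, adjusted p = 0.105). Without the block, limma-voom gave 0.88 (adjusted p = 0.941), and edgeR without the positive library of mouse 2 gave 1.28 (adjusted p = 0.764).

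Markers of goblet cells and gland serous cells, the other known sources of BPI-fold proteins and lactoferrin, also differed by mouse. Of 16 markers, 5 were tested and none was called by edgeR (1 at an unadjusted p under 0.05, 0 in DESeq2); they summed to 76.4, 142 and 23.2 CPM in negative cells and 324, 923 and 24.9 CPM in the positive libraries. Muc5b, a gel-forming airway mucin, had 333, 558 and 67 reads against 1771, 5048 and 88, and Muc5ac, the other main airway mucin, had 15, 24 and 0 against 19, 207 and 1. Scgb1a1, the club cell secretoglobin, was likewise lowest in mouse 3, with 1969, 3375 and 745 CPM against 12402, 13687 and 2240. So was Scgb3a2 of the club cell list, with 40.9, 38.0 and 5.07 CPM against 260, 108 and 18.4. Cyp2a5 of the same list was highest in mouse 3 in both fractions, with 39.0, 19.2 and 39.6 CPM against 94.9, 43.5 and 162. Other tested markers of the goblet and gland list were not lowest in mouse 3 in each fraction. Agr2 was highest in mouse 3 among positive libraries (3.33 CPM, against 2.03 and 3.01 in mice 1 and 2). Among negative ones it was lowest there (0.975, against 1.36 and 2.50). Azgp1 was highest there among negative libraries (5.65, against 2.72 and 2.50) and between the others among positive ones (4.29, against 9.29 and 1.74). Fcgbp was at 2.34 in negative cells of mouse 3, against 1.55 and 2.31. In positive cells it was lowest there (2.70, against 5.24 and 21.7). Muc5b, Muc5ac and the club cell markers Scgb1a1 and Scgb3a2 were thus lowest in mouse 3 in each fraction, as Bpifa1, Bpifb1 and Ltf were. The club cell marker Cyp2a5 was not. The summed goblet and gland list was lowest there too, while Agr2, Azgp1 and Fcgbp were not lowest there in each fraction. The part of these cells in the result was not tested.

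**Figure D3:**
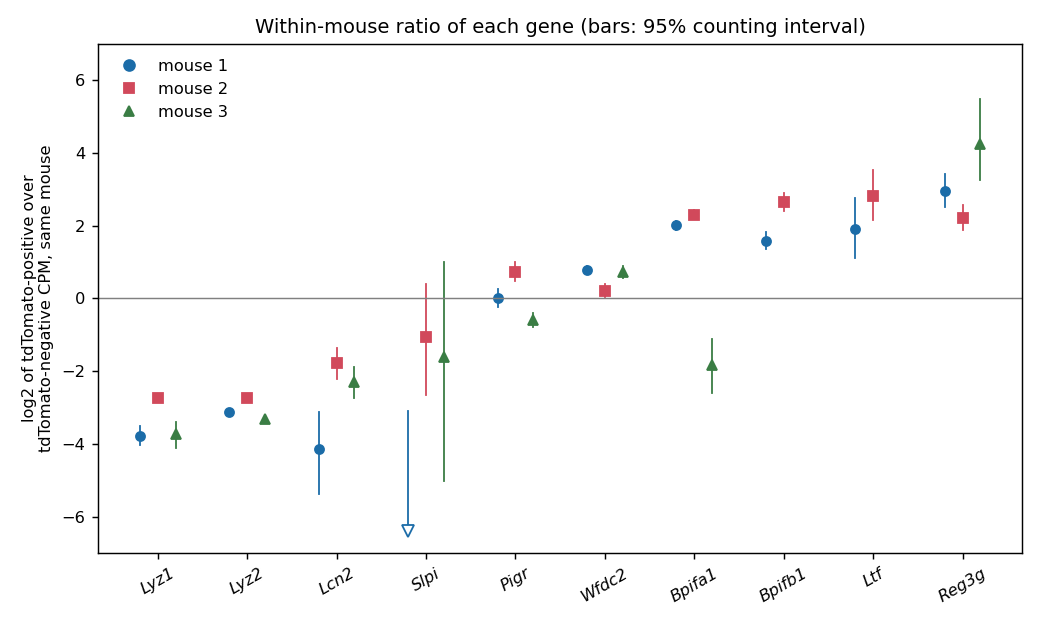
Log2 ratio of positive to negative CPM within each mouse for each gene, with bars for the 95% counting interval; an open arrow marks Slpi in mouse 1, which had 0 positive reads, and Bpifb1 and Ltf of mouse 3 are not drawn. Lyz1, Lyz2 and Lcn2 lie below 0 and Reg3g and Wfdc2 above 0 in all 3 mice, and Bpifa1 and Pigr lie on both sides.

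Lcn2 (chromosome 2, 32384633-32388252, minus strand), which captures bacterial siderophores, was lower in positive cells of each mouse. It had 123, 186 and 241 reads in negative cells and 8, 66 and 60 in positive cells, or 23.9, 35.7 and 47.0 against 1.35, 10.4 and 9.53 CPM. All positive libraries lay below all negative ones, and the positive library of mouse 1 was the lowest. On the log2 scale edgeR gave -2.31 ± 0.586 (SE, adjusted p = 0.187), and with the mouse as a block -2.53 ± 0.365 (adjusted p = 0.000465). Without the positive library of mouse 1 it was -1.83 (edgeR adjusted p = 0.0338). With the block but without mouse 3 it was -2.71 and no longer called (adjusted p = 0.111). Without the block, Lcn2 was also called by DESeq2 (-2.33, adjusted p = 0.000757) and by edgeR without an expression filter (-2.30, adjusted p = 8.93e-09). These settings called 245 and 413 genes in all, against 82 in the main fit, while the fold change of Lcn2 hardly moved. Limma-voom did not call it (-2.68, adjusted p = 0.117). Positive levels were 17.7-fold, 3.42-fold and 4.93-fold lower in mice 1, 2 and 3.

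Lcn2 and Ltf are also granule proteins of neutrophils, and Lyz2 is abundant in myeloid cells, so their markers were read beside them. The other 13 neutrophil markers together had 65, 167 and 15 reads in negative cells and 48, 94 and 40 in positive cells, and the granule genes Mpo and Elane and the surface marker Ly6g had 0 in all 6. Macrophage markers summed to 414, 1140 and 279 CPM in negative cells and 364, 377 and 340 CPM in positive cells. Of the 9 tested, Plet1, which epithelial cells can also express, was the 1 above 0 (log2 fold change 0.38); the other 8 were below 0, and the median of the 9 was -1.59 against 0.03 over all tested genes. Without Plet1 the sums were 210.1, 976 and 71.4 against 87.5, 158 and 85.4 CPM, lower in positive cells of mice 1 and 2 and not of mouse 3. Leukocyte markers summed to 65.1 to 223 and 33.0 to 81.3 CPM. Ptprc, which encodes the CD45 used to gate leukocytes out, had 159, 264 and 25 reads against 13, 63 and 18. Mouse 2, the highest for Lyz1, was also the highest for macrophage markers in the negative cells, where Chil3 supplied 3639 reads against 355 and 180 in mice 1 and 3. The part of these cells in the lysozyme and Lcn2 values was not tested.

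Alveolar type 2 markers were lower in positive cells, as Lyz2 was. All 16 were tested, 8 fell in edgeR and 13 with the mouse as a block, none rose, and their median log2 fold change was -2.94 against 0.03 over all tested genes. Sftpc, the surfactant protein that defines these cells, was 15.8-fold, 7.66-fold and 15.04-fold lower in the positive cells of mice 1, 2 and 3. Lyz2, at 8.69-fold, 6.71-fold and 9.94-fold lower, had the smallest ratio in mouse 2, as Sftpc did. The part of alveolar type 2 cells in the lysozyme values was not tested.

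**Figure D4:**
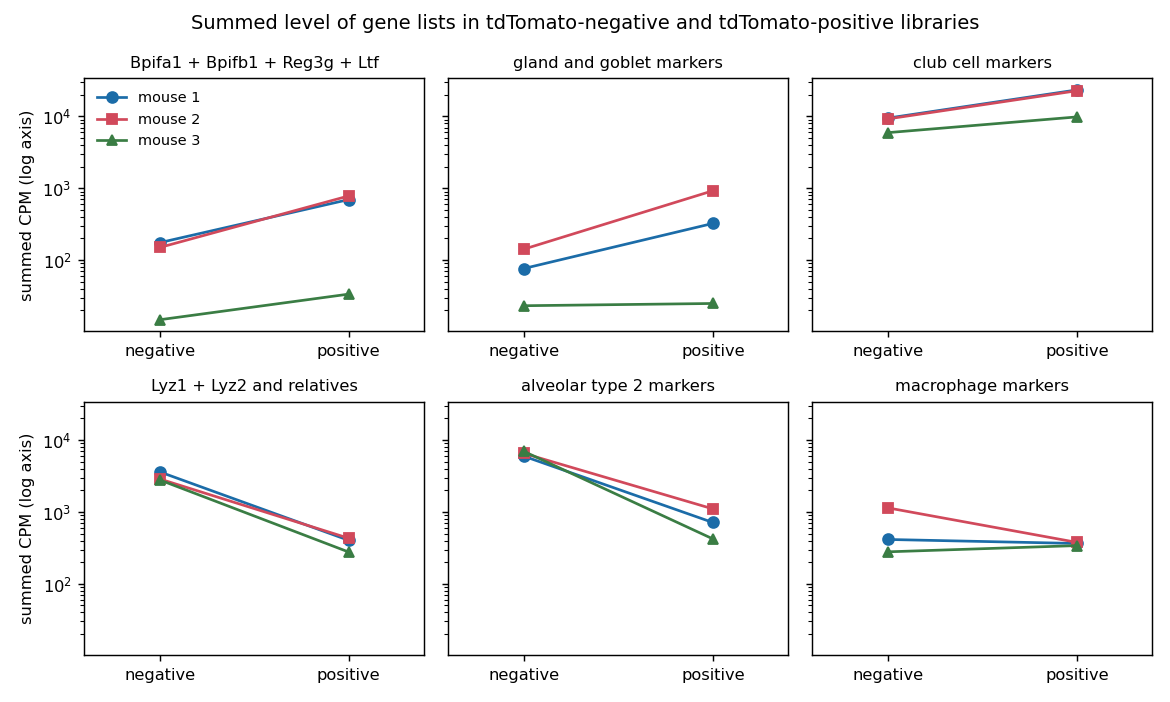
Summed CPM of 6 gene lists in each library on a log axis, with lines joining the libraries of a mouse; 1 panel sums Bpifa1, Bpifb1, Reg3g and Ltf, 1 sums the lysozyme family, and 4 sum cell type markers. Alveolar type 2 markers are lower in every positive library, club cell markers reach 23343 CPM, and goblet and gland markers of mouse 3 stay at 23.2 and 24.9 CPM.

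Neither WAP-domain gene was called. Wfdc2 (chromosome 2, 164562413-164568510, plus strand), also known as HE4 and made by many secretory epithelia, stood at 192, 75.3 and 85.8 CPM in negative cells and 331, 87.7 and 142 CPM in the positive libraries. The groups overlapped, and the positive library of mouse 1 was the highest. The within-mouse ratios were 1.72, 1.16 and 1.66, or 0.67 ± 0.597 on the log2 scale in edgeR (SE, adjusted p = 0.739), which missed the threshold with the mouse as a block too (0.58 ± 0.161, adjusted p = 0.0612). Without the positive library of mouse 1 the fold change was -0.03, and with the block but without mouse 2 it was 0.76 (adjusted p = 0.00552). Slpi (chromosome 2, 164354070-164389095, minus strand), an inhibitor of neutrophil elastase, had 29, 12 and 5 reads in negative cells and 0, 7 and 2 in positive cells. Its count was lower in each positive library, and the counting interval of the ratio included no change in mice 2 and 3.

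Pigr (chromosome 1, 130826684-130852249, plus strand) differed in opposite directions among the mice. It stood at 48.7, 36.5 and 91.8 CPM in negative cells and 49.1, 60.8 and 61.3 CPM in the positive libraries, so the positive values lay inside the range of the negative ones. EdgeR put the log2 fold change at -0.05 ± 0.303 (SE, adjusted p = 0.969), and the within-mouse ratios were 1.01, 1.66 and 0.667. The plasma and B cell list, whose cells make the antibody Pigr carries, summed to 125 to 195 and 143 to 204 CPM, most of it from Xbp1 and Sdc1, which are not particular to these cells. The antibody genes differed by mouse, with 299, 108 and 6 reads of Ighm in negative cells against 3, 14 and 268 in positive cells, and 99, 27 and 7 of Igkc against 2, 14 and 166. Their part in the Pigr values was not tested.

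Set against Lyz2 in the same mouse, the airway products were relatively higher in positive cells wherever both could be read. Bpifa1 went from 3.71 to 130 reads per 100 Lyz2 reads in mouse 1, from 6.02 to 199.6 in mouse 2 and from 0.475 to 1.32 in mouse 3. Reg3g went from 0.270 to 18.1, from 0.967 to 30.3 and from 0.0593 to 11.3. As a difference of within-mouse log2 ratios, the shift relative to Lyz2 was 6.20 ± 1.31 for Reg3g and 3.89 ± 2.09 for Bpifa1 (SD, n = 3). It was 5.05 ± 0.483 for Bpifb1 and 5.29 ± 0.384 for Ltf (SD, n = 2, mice 1 and 2). In mouse 3 the shift was 7.57 for Reg3g and 1.48 for Bpifa1. The Bpifa1 shift there came with a lower level of both genes in the positive cells. These are descriptions without a test, since the genes were chosen with results known, and a ratio of genes within a library does not depend on scaling.

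Per length of exon (CPM per kilobase, or RPKM), Lyz2 led in all 3 negative libraries, and no gene led in all 3 positive ones. In negative cells Lyz2 stood at 1930 ± 616 RPKM, followed by Lyz1 at 435 ± 440.0 and Wfdc2 at 103 ± 56.9 (SD, n = 3). In positive cells Lyz2 at 227 ± 53.6, Bpifa1 at 216 ± 185 and Wfdc2 at 164 ± 112 RPKM were next to each other and did not differ beyond their spread, and Lyz1 stood at 56.1 ± 73.9. Bpifa1 lay above Lyz2 in the positive libraries of mouse 1 (320 against 289 RPKM) and mouse 2 (325 against 191) and far below it in mouse 3 (2.26 against 201), and Wfdc2 reached 290.2 in mouse 1. Reg3g, Bpifb1 and Pigr followed in positive cells at 27.6 ± 11.8, 27.4 ± 24.8 and 14.2 ± 1.71 RPKM, and these neighbours also lay within their spread. Ltf was at 0.727 ± 0.591 RPKM in negative and 3.94 ± 4.14 in positive cells, Lcn2 at 13.5 ± 4.41 and 2.71 ± 1.91, and Slpi at 2.52 ± 2.03 and 0.403 ± 0.483.

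**Figure D5:**
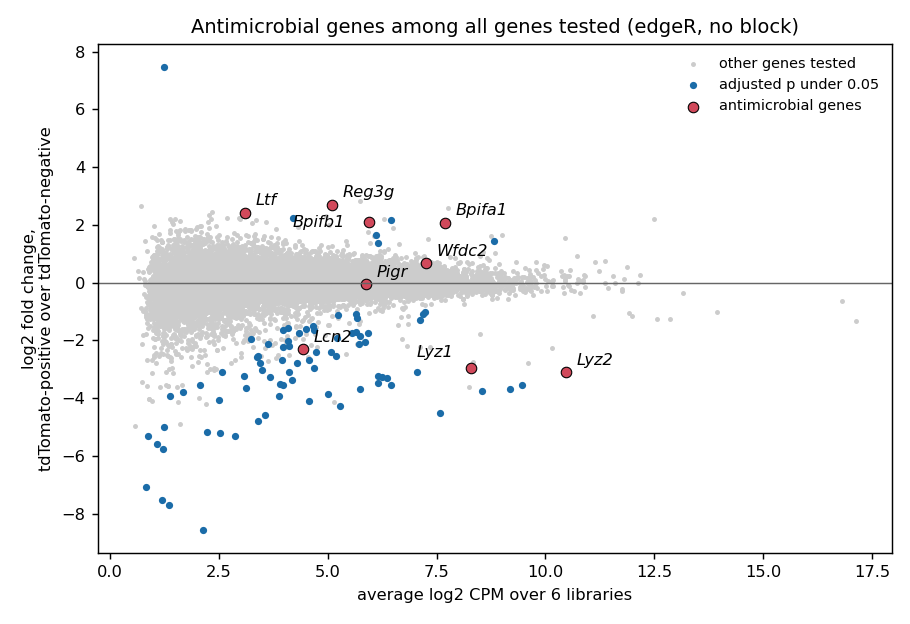
Log2 fold change (positive over negative) against average log2 CPM for all 13175 tested genes, with the 9 tested members named. Reg3g, Ltf, Bpifb1 and Bpifa1 lie at 2.08 to 2.70 and Lyz2, Lyz1 and Lcn2 at -3.09 to -2.31, while Pigr and Wfdc2 lie nearer 0.

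Relatives of the members were mostly not detected at a testable level. Of 15 BPI-fold genes 3 were tested, the third being Lbp, which binds lipopolysaccharide (log2 fold change 0.46, edgeR adjusted p = 0.537), and of 7 Reg lectins Reg3g alone. Of 19 WAP-domain genes 3 were tested, Wfdc2, Wfdc13 (1.57, adjusted p = 0.352) and Wfdc3 (0.08), and of 8 lysozyme family genes Lyz1 and Lyz2 alone. Among 38 other secreted defence proteins 11 were tested; 2 fell, the lung collectin Sftpd (-2.53, adjusted p = 0.00209) and the chitinase Chia1 (-1.76, adjusted p = 0.00538), and none rose. With the mouse as a block 4 fell, with Rnase4 (-0.84 and adjusted p = 0.0506 without the block) and Chil1 added. Their median log2 fold change was -0.84, against 0.03 over all tested genes. Sftpd and Chil1 also belong to the alveolar type 2 markers.

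None of the regulators that induce such genes passed the test without the block. Of 26 inducers, among them IL-17, IL-22 and Toll-like receptor signalling genes and NF-kappaB factors, 25 were tested and 0 were called by edgeR (1 higher and 1 lower at an unadjusted p under 0.05, and 0 by DESeq2 and limma-voom). With the mouse as a block the epithelial factor Elf3 rose (log2 fold change 1.07 without the block) and the NF-kappaB cofactor Nfkbiz fell (-0.58 without the block). Their median was 0.10, beside 0.03 over all tested genes.

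Across the 6 libraries, Bpifa1 was most like Bpifb1 (Pearson r = 0.985 of log2 CPM), P4ha2 (0.979) and Ltf (0.978) among tested genes whose mean log2 CPM reached 3. Reg3g was most like Dap (0.991), Apoa1bp (0.984) and Slc22a5 (0.981), and none of the airway products was among its nearest 3. Lyz2 was most like Adcy7 (0.996), Atp6v1c2 (0.996) and Col12a1 (0.989). Wfdc2 was most like Gtpbp1 (0.9998), Rpl18 (0.999) and Rps10 (0.995). Among the members, Lyz2 and Reg3g gave -0.840, Lyz2 and Lcn2 0.722, Reg3g and Lcn2 -0.782, and Bpifb1 and Ltf 0.980. These are descriptions over n = 6 libraries that share 3 mice and 2 sort fractions.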

How the data were processed

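RNA of 6 sorted lung cell samples was sequenced. Per the labels' protocols, Trizol-extracted RNA was column-cleaned, then amplified (Ovation V2) before TruSeq Nano library preparation. The authors deposited raw, unnormalized counts of reads per gene symbol. Per the submitters' processing notes, the tools were STAR 2.4.2a, cutadapt 1.7.1, FastQC, DESeq2 and HTSeq, and the builds mm10 and GRCm38.p4; the strand setting is not given in the sources used here. No exon of a member overlaps another annotated gene, except Slpi, by 1 base with Mir7678. The 5 HTSeq summary rows were not used in library sizes or tests; reads outside genes were 41.0 to 49.4% of all rows, ambiguous reads 1.31 to 1.99% and reads aligned to several places 8.26 to 12.0%.

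From these counts, CPM with TMM factors, log2 fold changes, standard errors and two-sided p-values were obtained by edgeR 4.0.16's quasi-likelihood test (R 4.3.3; robust; filterByExpr, count minimum 10), and adjusted p-values under 0.05 over the 13175 genes kept were called. The replicate number gives the mouse in the labels, so it pairs the libraries. Deviations from the group means correlated at 0.263, 0.254 and 0.346 within mice 1, 2 and 3. The model without the mouse is the main one, and the model with the mouse as a block is given where it changes a call. Counting intervals of within-mouse ratios are exact and conditional on the summed reads; they and the floors of 3 counts cover counting error only, since amplified reads are not independent molecules. Without the block, the p-values reflect the spread between the 3 libraries of a group and leave the pairing out. With the block, they reflect in part the spread between mice in the difference of the fractions. In both fits edgeR moderates the spread of a gene by that of all genes. A p-value can therefore be smaller than the spread between the mice alone would give. With the block but without mouse 1, for example, Lyz1 had an edgeR adjusted p of 4.45e-43. The code was tested on simulated data in which all genes shared the same dispersion and a mouse acted alike on both fractions. That test therefore did not cover mice that differ in the change between fractions. Positions and exon lengths come from the GENCODE annotation of GRCm38, and all 10 members matched a RefSeq promoter window (250 bases before to 50 after the start).

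The members and all lists were chosen with earlier results of these data known. Named are all members; of other lists at most 3 genes, or 4 for marker lists, with the smallest p plus the first 2 of each marker list; and for Reg3g, Lyz2, Bpifa1 and Wfdc2 the 3 genes most alike, leaving out symbols of the Gm or Rik form. Chil3, Chil1, Ly6g, Plet1, Agr2, Azgp1, Fcgbp, Ighm, Igkc, Xbp1 and Sdc1 were named after their values were seen. Alternatives were DESeq2 1.42.0, limma-voom (limma 3.58.1), other scalings and filters, the block, and leaving out libraries or mice.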

Additional observations from a re-analysis of the deposited data

How the results depend on the processing

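With 3 mice and few reads for Ltf and Slpi, calls depended on the model and on single mice. Lyz2 kept its direction and its call in all 20 alternatives (log2 fold change -3.31 to -2.85), and Reg3g (2.20 to 3.46), Lyz1 (-5.01 to -1.72), Lcn2 (-2.98 to -1.83), Bpifa1 (0.81 to 2.66), Bpifb1 (1.11 to 2.78) and Ltf (0.88 to 3.01) kept their direction; limma-voom gave the lowest values of the last 3. When a mouse was left out, the mean shift relative to Lyz2 was 3.26 to 5.09 for Bpifa1 and 5.52 to 6.82 for Reg3g. For Bpifb1 (4.71 to 5.39) and Ltf (5.02 to 5.57) the ends of the range are the values of single mice. All single-mouse shifts pointed the same way, so leaving out a mouse could not change the sign. Slpi was tested in 7 alternatives and Ltf in 19.

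Members called numbered 1, against 2 without an expression filter, 2 with DESeq2 and 6 with the replicate block. Leaving out a library or mouse gave 1 to 4: Lcn2 was added without the positive library of mouse 1, Lyz1 without mouse 2, and Bpifa1, Bpifb1 and Reg3g without mouse 3. With the replicate block the calls were 7 without mouse 1, 6 without mouse 2 and 5 without mouse 3. The 7 include Bpifa1, whose direction differed between mice 2 and 3. Over all genes, 82 were called, against 413 without a filter, 245 with DESeq2 and 415 with the replicate block. Leaving out a library or mouse gave 22 to 113, and leaving out mouse 1, 2 or 3 with the replicate block gave 633, 380 and 59. Scaling by library size alone moved the median over all tested genes from 0.03 to 0.29 (log2) and gave 22 genes higher and 54 lower, against 6 and 76.

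Directions turned for genes that were not called. Wfdc2, at 0.67, was at -0.0312 without the positive library of mouse 1, and leaving out a library or mouse gave -0.0312 to 1.22. Pigr, at -0.05, was at 0.193 with library size alone, 0.0581 with limma-voom, 0.0447 with the replicate block, 0.0511 without the positive library of mouse 1, 0.416 without the negative library of mouse 3 and 0.367 without mouse 3, and leaving out a library or mouse gave -0.345 to 0.416. With the block it was at 0.0402 without mouse 1 and 0.372 without mouse 3. The cause was not tested.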
